A study of Mus musculus with 4 samples.

Results

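The genes described here encode the enzymes of cholesterol synthesis, the proteins that govern them, and the enzymes of fatty acid synthesis. They were picked by name from the column of gene symbols of the deposited expression values. Of 34 names, 33 were found among the 23309 genes listed, 18 of them sterol enzymes, 5 regulators and 10 fatty acid enzymes. Sc4mol and Msmo1 are names of the same gene, and the values carry the older one. RNA was sequenced from 129/Ola mouse embryonic stem cells that were either Chd2 mut/mut or wild type, with 2 libraries of each genotype, titled lot 1 and lot 2. Chd2 encodes an ATP-dependent chromatin remodeler, and the titles call the mutant Chd2KO. Both genotypes were grown on gelatin with 10% fetal bovine serum and 1000 U/ml leukemia inhibitory factor, at passages 10 to 20. The labels do not say whether the mutant cells are 1 clone, how the wild-type line is related to them, whether the 2 lots of a genotype were grown apart, or whether lots with the same number share a day or batch across genotypes.

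Levels are in FPKM, sequenced fragments scaled for transcript length and library size, and there is 1 value per gene and genotype. No value has a replicate error, library depth is unknown, and significance is that of the q-value in the authors' deposited table. Chd2 itself was at 5.69 FPKM in mut/mut cells, against 10.2 FPKM in wild type, and the authors' deposited table calls it lower with a q-value of 0.0103. The 10 embryonic stem cell markers checked were at 18.1 FPKM or more in mut/mut cells and at 16.7 FPKM or more in wild type, and 8 of them were higher in the mutant without a call. Of 8 fibroblast markers only Thy1 reached 1 FPKM, and the list summed to 11.8 FPKM in mut/mut and 14.7 FPKM in wild-type cells, with Col3a1, Lum and Postn at 0 in both. The hepatocyte and yolk sac markers summed to 0.129 and 0.255 FPKM in mut/mut and wild type, with 5 of 8 at 0 in both genotypes. The 6 adipocyte markers summed to 0.319 FPKM in mut/mut and 1.07 FPKM in wild type, nearly all of it Adipoq, and 3 of them were at 0 in both. In RNA from a whole culture, fewer cells of a kind and less RNA per cell cannot be told apart.

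Cholesterol is built from acetyl-CoA through mevalonate, isoprenoids and squalene, and lanosterol is then trimmed and reduced to cholesterol. The transcription factors SREBF1 and SREBF2 (sterol regulatory element-binding proteins, SREBPs) are held in the endoplasmic reticulum by SCAP and the INSIG proteins while sterols are plentiful, and are released to switch on these genes when sterols fall. SREBF2 is known mainly for the sterol enzymes and SREBF1 mainly for the fatty acid enzymes. Dividing cells need both products for membranes.

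No gene of either branch was called different between the genotypes by the authors' test. Of the 32 members averaging at least 1 FPKM, 0 were called, beside 0.718% of the 11276 genes with a q-value below 1. The lowest q-values among members in the authors' deposited table were 0.327 for Scd1 and 0.452 for Idi1, and 250 genes of the series had a q-value at or below that of Scd1. No source used here names the test behind the q-values, and without unadjusted p-values no count at p under 0.05 can be given. Values nonetheless leaned to one side. Of the 32 members, 23 were lower and 9 higher in mut/mut cells (71.9% lower), beside 50.4% of all 10766 genes averaging at least 1 FPKM. The share of lower genes depends on the level of a gene and was 57.9% over all genes averaging at least 10 FPKM, beside 18 of 27 members (66.7%). With the genotypes scaled to 1 common distribution (quantile normalization), 19 of the 32 members were lower (59.4%), beside 47.7% of all genes. The median difference of log2(FPKM + 1), mut/mut minus wild type, was -0.07 over the members and -0.0012 over all genes. Among genes averaging at least 10 FPKM it was -0.0403 over the members and -0.0265 over all genes.

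The first enzymes, up to squalene epoxidase, were on both sides of wild type. Idi1, which interconverts the isoprenoid building blocks, was at 40.5 FPKM in mut/mut cells and 51.1 FPKM in wild type, a ratio of 0.792 and the lowest of this stretch. Pmvk, which phosphorylates phosphomevalonate, was at 29.5 FPKM in mut/mut and 36.1 FPKM in wild type, and Acat2, the cytosolic thiolase that starts the pathway, at 27.4 and 31.04 FPKM. The authors' deposited table gives Idi1, Pmvk and Acat2 q-values of 0.452, 0.709 and 0.949. Sqle, which epoxidises squalene, was at 34.98 FPKM in mut/mut and 35.5 FPKM in wild type.

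Higher in the mutant, again without a call, was Fdft1, the squalene synthase, at 19.9 FPKM in mut/mut and 16.8 FPKM in wild type, a ratio of 1.18 with a q-value of 0.919 in the authors' deposited table. Mvk, mevalonate kinase, was at 24.2 and 22.2 FPKM in mut/mut and wild type, and Mvd, the decarboxylase, at 32.6 and 32.04 FPKM. Fdps, which makes farnesyl diphosphate for sterols and for other isoprenoids, was the most abundant member at 148.7 FPKM in mut/mut and 146 FPKM in wild type, above 93.3% of the genes averaging at least 1 FPKM. Among these 8 enzymes 4 were lower and 4 higher, with a median difference of 0.00082 on the log2(FPKM + 1) scale. Hmgcs1, which condenses acetoacetyl-CoA to HMG-CoA, is listed at 0 in both genotypes, so no ratio can be given, and a 0 in these values can be a failed estimate. It is the 1 listed member outside the counts of 32.

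From lanosterol on, 7 of 9 enzymes were lower in mut/mut cells and 2 higher, none called, with a median difference of -0.10 on the log2(FPKM + 1) scale. Hsd17b7, a sterol ketone reductase, had the lowest level of all members with a signal, at 2.06 FPKM in mut/mut and 2.61 FPKM in wild type, and the lowest ratio of the sterol branch at 0.789. Nsdhl, the X-linked dehydrogenase that removes methyl groups of lanosterol derivatives, was at 10.8 FPKM in mut/mut cells and 13.04 FPKM in wild type. Dhcr7, the last reductase, was at 7.66 FPKM in mut/mut and 8.84 FPKM in wild type. The authors' deposited table lists q-values of 0.745 for Hsd17b7, 0.788 for Nsdhl and 0.946 for Dhcr7.

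Lss, which closes the rings to lanosterol, was at 14.4 FPKM in mut/mut and 15.5 FPKM in wild type, and Cyp51, the lanosterol demethylase, at 12.5 and 13.5 FPKM. Ebp, the sterol isomerase, was at 14.9 FPKM in mut/mut and 15.4 FPKM in wild type, and Sc5d, a sterol desaturase, at 4.67 and 4.93 FPKM. These 4 genes were within 8% of wild type on the lower side. The 2 genes on the higher side were Tm7sf2, a sterol reductase, at 14.8 FPKM in mut/mut and 12.8 FPKM in wild type, and Sc4mol, the methyl sterol oxidase, at 27.2 and 25.6 FPKM.

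Exons of 6 members overlap those of another protein-coding gene in GENCODE M21, and no source used here says how strand was treated in counting. Fdft1 and Tm7sf2, which had the highest ratios among the sterol enzymes, share the most bases apart from Fdps. Fdft1 shares 774 exon bases with Ctsb on the other strand, at 5.62 FPKM in mut/mut and 5.96 FPKM in wild type. Tm7sf2 shares 532 with Vps51 on the same strand, at 13.6 and 13.2 FPKM. Elovl1 shares only 53 with Cdc20 on the other strand, but Cdc20 was the most abundant partner with a value. It was at 185 FPKM in mut/mut and 217 FPKM in wild type. The part of these overlaps in the result was not tested, and without the 6 genes 20 of 26 members were lower in mut/mut cells.

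Promoter windows of 300 bases, 250 before and 50 after an annotated start, were taken from RefSeq on GRCm38.p6 for 27 of the 33 members. None was matched for Fdps, Fdft1, Sqle, Scd1, Scd2 and Fads1. The windows shown are of Hmgcs1, the 1 member that holds a match to a classical sterol regulatory element, and of Hsd17b7, Idi1, Pmvk and Nsdhl, the 4 sterol enzymes with the lowest ratios, chosen after their values were seen. Pmvk has 2 annotated starts and a window for each. Capitals mark matches to TCACNCCAC (sterol regulatory element) and to CCAAT (the box bound by NF-Y, a cofactor of SREBPs), in either orientation.
Hmgcs1 promoter, chr13:119690101-119690400, plus strand of GRCm38.p6: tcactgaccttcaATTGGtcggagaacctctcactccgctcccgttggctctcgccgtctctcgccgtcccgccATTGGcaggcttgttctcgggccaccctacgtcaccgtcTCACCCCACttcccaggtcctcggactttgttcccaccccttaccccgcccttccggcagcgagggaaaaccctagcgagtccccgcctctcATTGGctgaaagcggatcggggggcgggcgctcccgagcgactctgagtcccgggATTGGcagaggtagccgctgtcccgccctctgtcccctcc
Hsd17b7 promoter, chr1:169969156-169969455, minus strand of GRCm38.p6: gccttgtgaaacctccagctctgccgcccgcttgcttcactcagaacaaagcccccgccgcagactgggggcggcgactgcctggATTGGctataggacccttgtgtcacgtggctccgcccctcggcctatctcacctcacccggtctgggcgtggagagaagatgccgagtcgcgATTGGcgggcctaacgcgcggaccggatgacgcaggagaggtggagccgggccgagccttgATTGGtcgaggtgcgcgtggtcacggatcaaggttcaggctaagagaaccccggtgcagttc
Idi1 promoter, chr13:8885356-8885655, plus strand of GRCm38.p6: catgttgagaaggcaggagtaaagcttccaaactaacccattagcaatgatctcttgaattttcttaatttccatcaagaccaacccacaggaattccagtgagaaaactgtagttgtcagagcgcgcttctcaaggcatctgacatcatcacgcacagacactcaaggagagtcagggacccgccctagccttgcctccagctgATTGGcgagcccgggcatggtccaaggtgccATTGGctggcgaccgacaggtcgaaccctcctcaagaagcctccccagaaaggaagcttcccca
Pmvk promoter, chr3:89454291-89454590, plus strand of GRCm38.p6: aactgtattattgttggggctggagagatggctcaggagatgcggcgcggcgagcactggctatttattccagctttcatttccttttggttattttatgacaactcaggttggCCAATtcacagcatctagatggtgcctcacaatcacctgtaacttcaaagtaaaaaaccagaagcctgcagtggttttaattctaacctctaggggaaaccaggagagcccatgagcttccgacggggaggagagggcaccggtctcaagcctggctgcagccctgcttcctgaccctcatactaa
Pmvk promoter, chr3:89459321-89459620, plus strand of GRCm38.p6: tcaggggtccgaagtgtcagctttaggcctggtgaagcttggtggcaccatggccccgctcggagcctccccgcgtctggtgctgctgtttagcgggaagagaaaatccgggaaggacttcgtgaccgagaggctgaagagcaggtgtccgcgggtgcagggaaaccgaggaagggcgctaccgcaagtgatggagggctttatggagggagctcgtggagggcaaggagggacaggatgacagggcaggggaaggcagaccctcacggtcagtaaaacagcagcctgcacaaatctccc
Nsdhl promoter, chrX:72918271-72918570, plus strand of GRCm38.p6: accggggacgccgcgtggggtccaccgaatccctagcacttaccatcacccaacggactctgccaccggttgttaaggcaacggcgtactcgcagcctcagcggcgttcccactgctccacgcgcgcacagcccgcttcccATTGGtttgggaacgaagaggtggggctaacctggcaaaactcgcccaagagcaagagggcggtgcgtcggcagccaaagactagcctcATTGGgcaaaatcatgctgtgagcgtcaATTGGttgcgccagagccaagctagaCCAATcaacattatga
Hmgcs1 holds the element 137 bases before its start and 4 CCAAT boxes, of which those closest to it begin 176 and 45 bases before the start. Hsd17b7 holds 3 CCAAT boxes, Idi1 2 and Nsdhl 4. Pmvk holds 1 in its first window and none in its second. None of the windows of these 4 genes holds an exact match to the element, and sites with a mismatch were not searched for.

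A CCAAT box in either orientation was found for 22 of 27 members (81.5%), against 41.1% of all 27025 genes with a window. By branch the 22 were 14 of 15 sterol enzymes, 4 of 5 regulators and 4 of 7 fatty acid enzymes. Among genes averaging at least 1 FPKM it was found for 21 of 26 members (80.8%), against 43.8% of 7986 genes. Counted by window it was in 23 of 36 (63.9%), against 37.4% of all 32851 windows. The sterol regulatory element TCACNCCAC was found for Hmgcs1 only, which is listed at 0 FPKM, so among genes averaging at least 1 FPKM it was found for 0 of 26 members, against 1.41% of genes. Over all genes with a window the share was 1.44%, and over all windows 1.24%. The GC box GGGCGG was found for 21 of the 26 members (80.8%), against 71.5% of genes averaging at least 1 FPKM and 38.2% of all genes with a window. By window it was in 27 of 36 (75%), against 35.7% of all windows. The E-box CACGTG was found for 6 of the 26 (23.1%), against 12.6% of genes at that level and 8.09% of all genes with a window. By window it was in 7 of 36 (19.4%), against 7.15% of all windows. Shares over all windows include genes below 1 FPKM or without a value, so the counts by window have no background at the level of the members. These are exact matches of letters on either strand, with overlaps allowed, in a reference genome of another build than the deposited values. Variants of the element with a mismatch were not counted, so a missing match does not show that a promoter lacks the element.

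**Figure D1:**
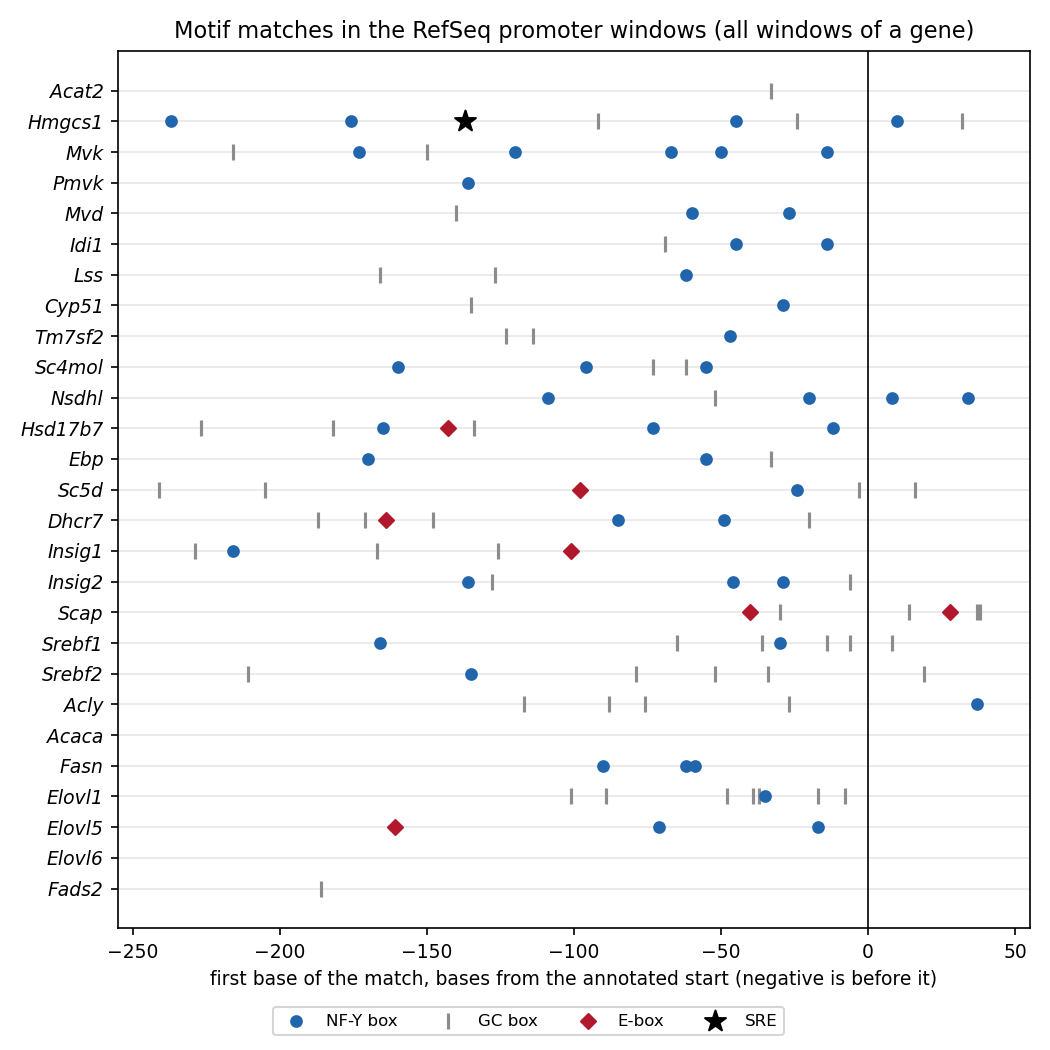
Position of motif matches in the promoter windows of 27 members, in bases from the annotated start (x axis), with 1 row per gene (y axis, pathway order) and 1 marker per match on either strand. The NF-Y box appears in 22 rows and the sterol regulatory element (SRE) in 1, that of Hmgcs1.

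The SREBP system itself lay within 13% of wild type. All 5 regulators were lower in mut/mut cells as deposited, while under quantile normalization Srebf2 was higher. Their median difference was -0.04 on the log2(FPKM + 1) scale. Srebf2 was at 41.4 FPKM in mut/mut and 41.6 FPKM in wild type, and Scap, the escort and sterol sensor, at 11.9 and 12.1 FPKM. Srebf1 was at 9.77 FPKM in mut/mut cells and 11.1 FPKM in wild type, with a q-value of 0.951 in the authors' deposited table, and had the lowest ratio of the 5 at 0.8795. A single value for Srebf1 cannot separate its isoforms. Insig1, itself a target of SREBPs, was at 19.6 FPKM in mut/mut and 20.2 FPKM in wild type, and Insig2 at 4.35 and 4.72 FPKM.

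Within a genotype, Srebf2 was 4.24 times the level of Srebf1 in mut/mut cells and 3.75 times in wild type, and Insig1 was 4.51 times the level of Insig2 in mut/mut and 4.28 times in wild type. The order of the 5 regulators by level was the same in both genotypes.

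**Figure D2:**
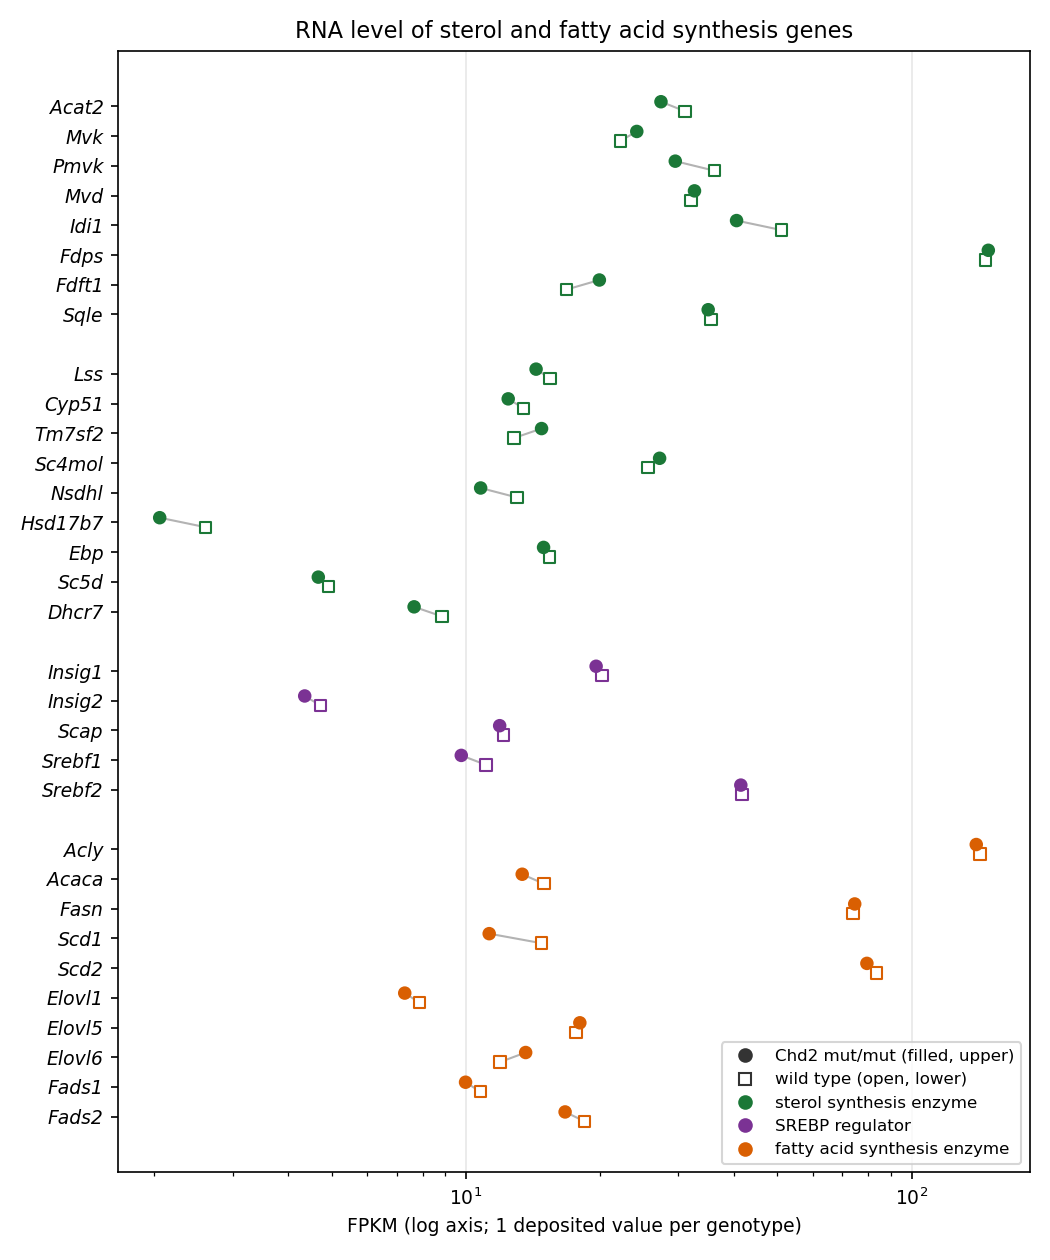
Deposited FPKM of the 32 members averaging at least 1 FPKM (x axis, log scale), with 1 row per gene (y axis); filled circles are Chd2 mut/mut and open squares wild type, and Hmgcs1, listed at 0, is not drawn. Levels run from 2.06 FPKM (Hsd17b7) to 148.7 FPKM (Fdps) in mut/mut cells and from 2.61 to 146 FPKM in wild type, and the markers of a gene lie close together at every level.

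In the fatty acid branch 7 of 10 enzymes were lower in mut/mut cells and 3 higher, none called, with a median difference of -0.08 on the log2(FPKM + 1) scale. Under quantile normalization Acly was higher and Scd2 at 0 difference. The entry enzymes were at high levels. Acly, which makes cytosolic acetyl-CoA from citrate, was at 139.7 FPKM in mut/mut and 142 FPKM in wild type. Fasn, the fatty acid synthase, was at 74.6 FPKM in mut/mut and 73.9 FPKM in wild type. Acaca, the acetyl-CoA carboxylase between them, was much lower, at 13.4 FPKM in mut/mut and 14.97 FPKM in wild type, with a q-value of 0.9495 in the authors' deposited table.

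The stearoyl-CoA desaturases, which put the first double bond into saturated chains, held the largest difference of all members. Scd1 was at 11.3 FPKM in mut/mut cells, against 14.8 FPKM in wild type, a ratio of 0.764. Scd2, the more abundant form here, was at 79.4 FPKM in mut/mut and 83.5 FPKM in wild type. Scd2 was thus 7.04 times the level of Scd1 in mut/mut and 5.65 times in wild type. The neighbouring Scd3 was at 0.443 and 0.559 FPKM and Scd4 at 0.058 and 0.0786 FPKM in mut/mut and wild type. No source used here says how reads shared by these close paralogs were divided, so their single values are uncertain.

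The elongases and front-end desaturases lay within 15% of wild type. Elovl6, which extends palmitate, was at 13.6 FPKM in mut/mut cells and 11.9 FPKM in wild type, the highest ratio of the branch at 1.141. Elovl5, which extends polyunsaturated chains, was at 18.03 FPKM in mut/mut and 17.7 FPKM in wild type, and Elovl1, for very long saturated chains, at 7.296 and 7.87 FPKM. Fads1 was at 9.99 FPKM in mut/mut and 10.8 FPKM in wild type. Fads2, the desaturase that acts before it, was at 16.7 FPKM in mut/mut and 18.5 FPKM in wild type. Fads2 was 1.67 times the level of Fads1 in mut/mut and 1.71 times in wild type.

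**Figure D3:**
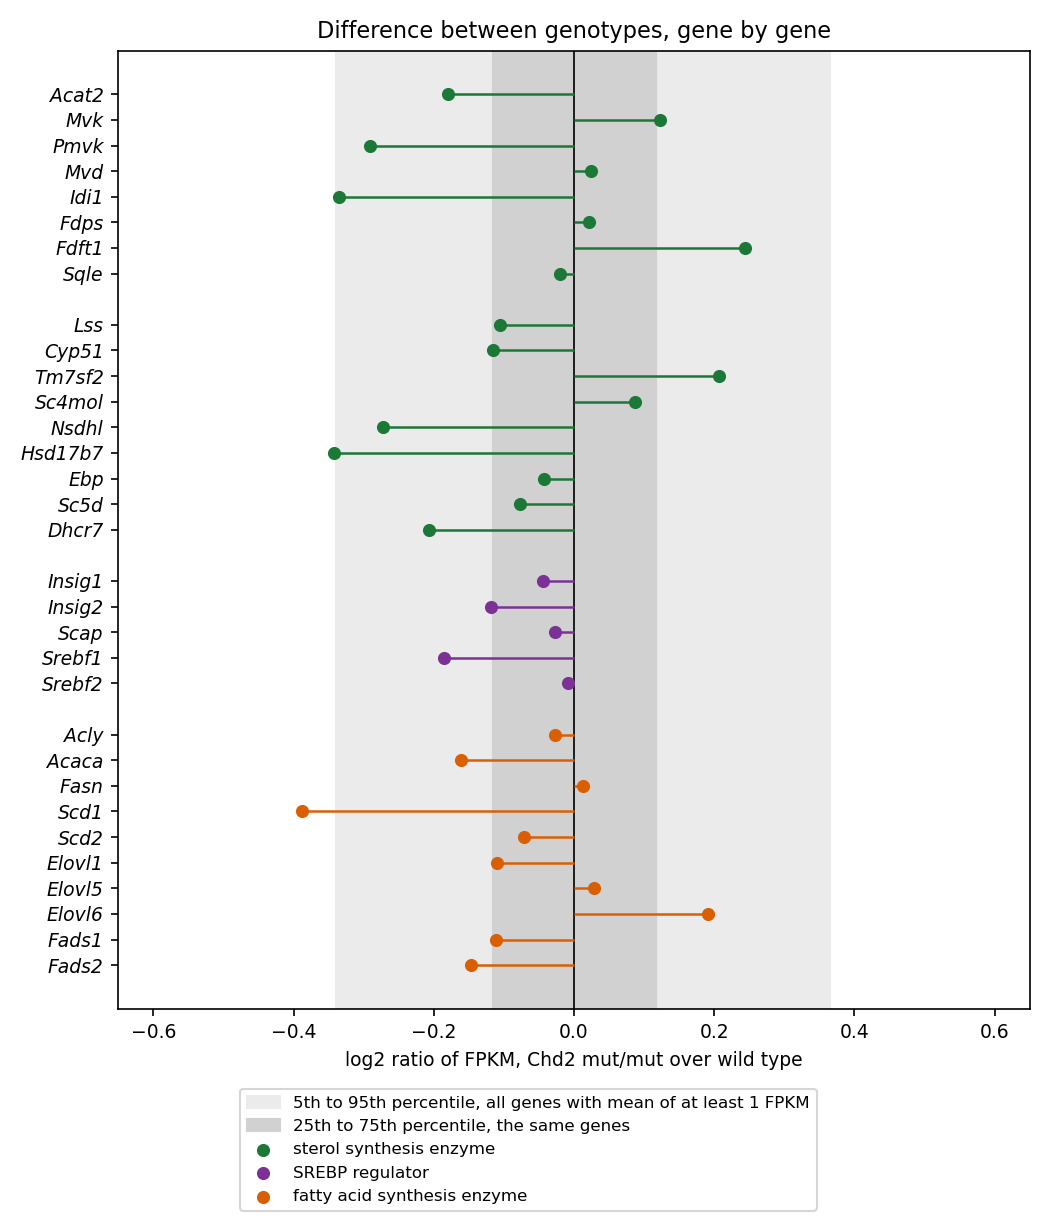
log2 ratio of FPKM, Chd2 mut/mut over wild type (x axis), for the 32 members in pathway order (y axis); grey bands are the central ranges of all genes averaging at least 1 FPKM. Scd1 and Hsd17b7 lie left of the wide band, Idi1 just inside it, and no member lies right of it.

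Sizes were small against those of called genes, which largely follows from no member being called. A ratio of 0.8 or less was reached by 3 members, Scd1, Idi1 and Hsd17b7, beside 5.9% of all genes averaging at least 1 FPKM. Above a mean of 5 FPKM it was reached by 2 of 29 members, beside 3.81% of all genes. The same size of difference on the higher side, 0.32 on the log2 scale, was reached by 0 of the 32 members, beside 6.94% of all genes. At a mean of at least 5 FPKM it was reached by 0 of 29 members, beside 249 of 7500 genes. A 1.5-fold difference either way was reached by 0 members, beside 3.75% of all genes. Of the 7500 genes averaging at least 5 FPKM, 93 reached that fold on the lower side and 70 on the higher side. The median size of the log2 ratio, sign aside, was 0.11 over members and 0.12 over all genes averaging at least 1 FPKM. This order depends on level. At a mean of at least 5 FPKM the median size was 0.111 over members and 0.1003 over all genes. At a mean of at least 10 FPKM it was 0.111 and 0.095. Summed over the 17 sterol enzymes, FPKM was 467 in mut/mut and 483 in wild type (96.5% of wild type), and over the 10 fatty acid enzymes 384 and 396 (96.9%).

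The smallest change called in the authors' deposited table was 1.51-fold among genes with a mean of 5 to 20 FPKM, where 17 members lie, and 1.42-fold among genes of 20 to 60 FPKM, where 8 lie. The largest member differences in those ranges were 1.31-fold for Scd1 and 1.26-fold for Idi1, both lower in mut/mut cells. A missing call does not show that a difference of such a size is absent. Of genes at 5 to 20 FPKM, 85 differed by as much as the smallest call and 28 were called.

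**Figure D4:**
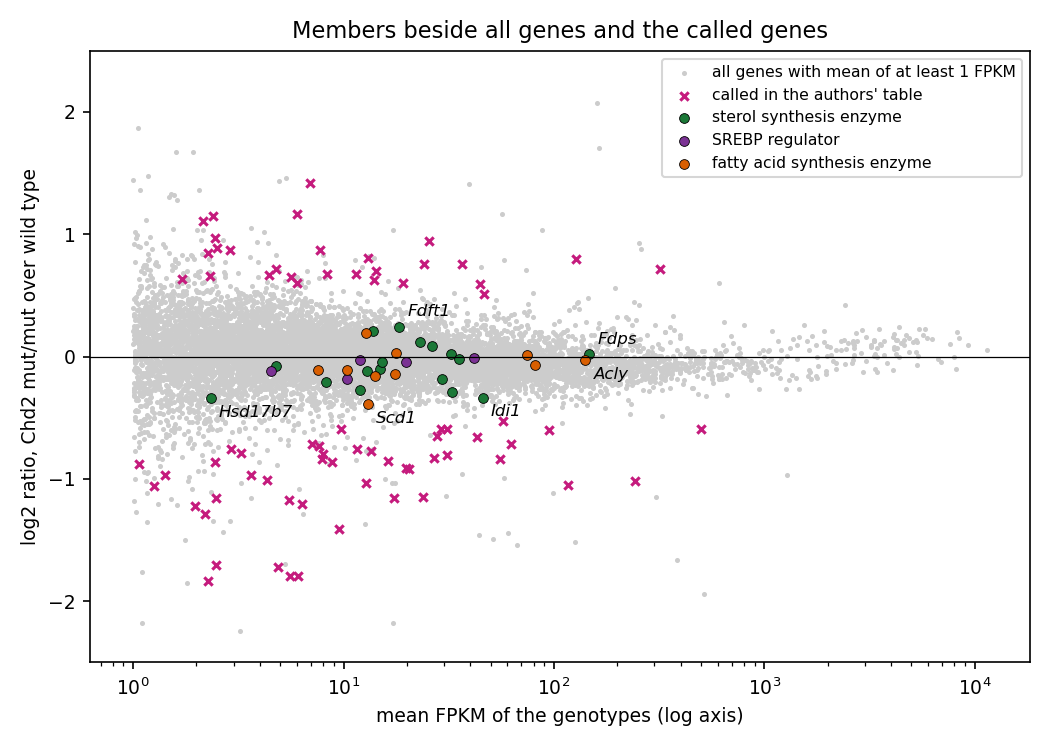
log2 ratio, Chd2 mut/mut over wild type (y axis), against the mean FPKM of the genotypes (x axis, log scale) for all genes averaging at least 1 FPKM (grey), the genes called in the authors' deposited table (crosses) and the members (coloured circles); 11 genes with a finite ratio, 1 of them called, lie beyond the axis. The members, none of them called, lie inside the grey cloud. They are closer to 0 than the called genes at the same level, which largely follows from their not being called.

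The order of the members by level was largely shared. In the sterol branch 9 of 17 enzymes had the same rank in both genotypes and none moved by more than 3 places. In the fatty acid branch 5 of 10 had the same rank and none moved by more than 2. Fdps, Idi1 and Sqle led the sterol branch in mut/mut cells, and Fdps, Idi1 and Pmvk in wild type. Acly, Scd2 and Fasn led the fatty acid branch in both.

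Neighbouring pathways held no call in the authors' deposited table either, with q-values of at least 0.205. Over all 11276 genes with a q-value below 1 the called share was also small, at 0.718%. In sterol uptake, export and LXR (liver X receptor) genes, 10 of 13 averaging at least 1 FPKM were higher in mut/mut cells and 3 lower, with a median difference of 0.11 on the log2(FPKM + 1) scale. Abcg1, a sterol exporter and target of LXR, was at 4.01 FPKM in mut/mut and 2.85 FPKM in wild type, a ratio of 1.41 with a q-value of 0.252 in the authors' deposited table. Apoe, a lipid-carrying apolipoprotein, was at 412 FPKM in mut/mut and 327 FPKM in wild type. Soat2, which esterifies cholesterol, was at 1.79 FPKM in mut/mut and 1.37 FPKM in wild type. This list and the sterol enzymes thus leaned to opposite sides. Of the sterol enzymes 11 of 17 were lower, but those up to squalene epoxidase were 4 lower and 4 higher. The share of lower genes also depends on level. It was 50.4% over all genes averaging at least 1 FPKM and 57.9% over those averaging at least 10 FPKM. Abcg1 and Soat2 lie below 10 FPKM and Apoe above it. The sterol enzymes had a median of 19.9 FPKM in mut/mut and 16.8 FPKM in wild type. The difference between the lists, and the part of level in it, was not tested.

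The other enzymes of sterol synthesis had 4 of 7 genes lower and a median of -0.0013. Stard4, a sterol carrier, was at 7.72 FPKM in mut/mut and 6.69 FPKM in wild type, and Acbd3, a Golgi protein, at 11.7 and 10.5 FPKM. Genes of SREBP processing had 10 of 19 lower and a median of -0.0028, with Pgrmc1, a haem-binding membrane protein, at 44.1 FPKM in mut/mut and 55.1 FPKM in wild type. In that list the coat protein gene Sec24d was at 12.6 FPKM in mut/mut and 10.8 FPKM in wild type.

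The isoprenoid branches that leave the pathway after mevalonate had 10 of 24 genes lower and a median of 0.0079. Coq7, of ubiquinone synthesis, was at 43.6 FPKM in mut/mut and 54.5 FPKM in wild type, Srd5a3, of dolichol synthesis, at 4.42 and 3.42 FPKM, and Pdss2, which makes the ubiquinone tail, at 5.56 and 7.03 FPKM. The supply of acetyl-CoA and NADPH had 11 of 20 lower and a median of -0.0084. There Tkt, transketolase, was at 204 FPKM in mut/mut and 240.5 FPKM in wild type, Mid1ip1, an activator of acetyl-CoA carboxylase, at 23.2 and 19.9 FPKM, and Trim21, a ubiquitin ligase, at 1.26 and 1.62 FPKM.

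Other elongation and desaturation genes had 7 of 11 lower and a median of -0.05. Ptpla, a dehydratase of the elongation cycle, was at 7.72 FPKM in mut/mut and 10.1 FPKM in wild type, Ptplad1 of the same family at 8.58 and 10.03 FPKM, and Acsl6, an acyl-CoA synthetase, at 1.32 and 0.985 FPKM. Mitochondrial fatty acid synthesis had 5 of 10 lower and a median of -0.03. In it H2-Ke6, a subunit of the ketoacyl reductase, was at 11.8 and 14.8 FPKM in mut/mut and wild type, the enoyl reductase Mecr at 19.7 and 23.3 FPKM and Aasdhppt, which arms acyl carrier proteins, at 24.8 and 28.01 FPKM. In glycerolipid synthesis 8 of 11 genes were higher, with a median of 0.04. Its largest differences were nevertheless on the lower side. Dgat2, which makes triglyceride, was at 1.55 FPKM in mut/mut and 2.70 FPKM in wild type, a ratio of 0.573 with a q-value of 0.205 in the authors' deposited table. Fabp5, a fatty acid carrier, was at 14.7 FPKM in mut/mut and 18.8 FPKM in wild type, and Agpat2, an acyltransferase of phosphatidic acid synthesis, at 34.2 and 39.9 FPKM.

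**Figure D5:**
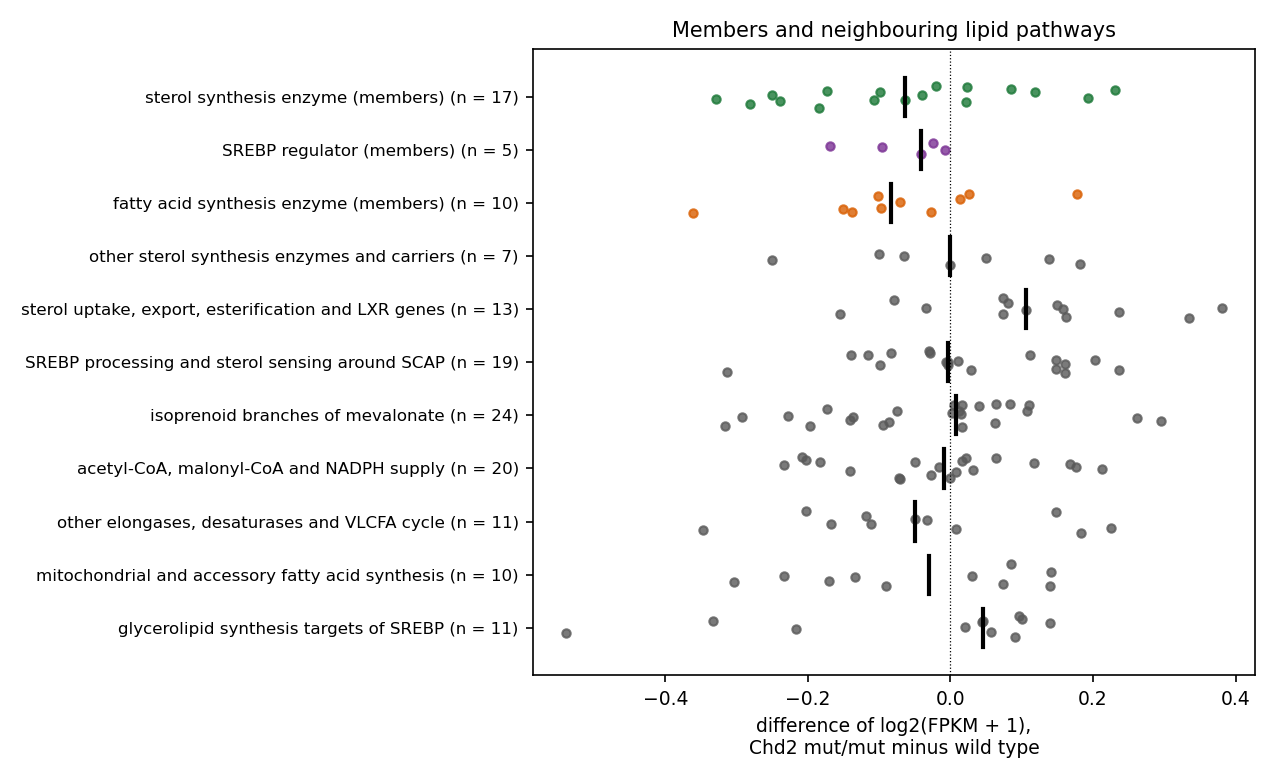
Difference of log2(FPKM + 1), Chd2 mut/mut minus wild type (x axis), for each gene averaging at least 1 FPKM in the members' branches (coloured) and in 8 neighbouring gene lists (grey); each row is a list, vertical bars are medians, and the height of a point within a row has no meaning. Medians lie between -0.08 (fatty acid members) and 0.11 (sterol uptake, export and LXR genes), and each row spreads wider than its median lies from 0.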

How the data were processed

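Total RNA of 4 libraries, 2 Chd2 mut/mut and 2 wild type, was made into libraries with a NEBNext Ultra RNA kit, per the labels' protocols. Reads were processed with bcl2fastq 2.17.1.14, Cufflinks and TopHat2 2.1.0 on build mm9, per the submitters' processing notes. No source used here gives the Cufflinks version, the annotation or the test. The authors deposited 1 FPKM value per gene and genotype, a log2 fold change of mut/mut over wild type without a pseudocount, and a q-value with a yes or no call, per the file headers. All 81 called genes have a q-value under 0.05. Values of single libraries were not analysed here, so the fit across libraries planned for that case could not be run.

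From these values the ratio and the difference of log2(FPKM + 1) were computed with Python 3.11.15 and pandas 2.3.3. Medians and counts cover genes averaging at least 1 FPKM, and a pseudocount understates the change of low genes. Computations were tested on simulated data. Members and lists were chosen with earlier results of these data known. All members are given, and of other lists up to 3 of the largest differences, with some genes not reported here. Symbols were matched to RefSeq (GRCm38.p6) for older names and promoters, and exon overlaps were read from GENCODE M21 on GRCm38. Beyond the promoter windows shown, on GRCm38.p6, no coordinates of genes are given, since the values use another build.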

Additional observations from a re-analysis of the deposited data

How the results depend on the processing

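The settings with the plain ratio, averaging at least 10 FPKM and without overlapping genes were chosen after seeing the data. With a q-value under 0.02 or under 0.2 in place of 0.05, 0 members were called, as before (0.559% and 1.45% of genes with a q-value below 1). The lowest q-value of a member in the authors' deposited table, 0.327 for Scd1, fixes both counts, so they add no separate check. The median difference of all members was -0.07 on the log2 scale, and -0.0415 and -0.0403 when averages of at least 5 and 10 FPKM were required. The median difference of all genes was -0.0012, and -0.0131 and -0.0265 at those minimum levels, so the gap between members and all genes narrowed with level. That of the sterol enzymes was -0.06, and -0.0378 with a pseudocount of 5, -0.0403 and -0.0301 at those minimum levels, and -0.0983 without genes that share exon bases. That of the regulators was -0.04, and -0.0228 under quantile normalization, and that of the fatty acid enzymes -0.08, and -0.0505 under quantile normalization. Shifts with the minimum level follow from the fewer genes counted, and the cause of the others was not tested. Over the 9 alternatives, 11 of 274 values of single members moved by over 1.5 times or changed side. Quantile normalization moved 8 of 32 and a pseudocount of 5 moved 3 of 32. Settings that only change which genes are counted cannot move the value of a gene, so the pooled count does not measure robustness. Changes of side were those of Acly, Sqle and Srebf2, with Scd2 at 0, all under quantile normalization. Depth is unknown and 1 value per genotype gives no replicate error, so no alternative measures the spread between libraries. No paired analysis was possible because there is 1 value per genotype, and leaving out a library could not be run for the same reason.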

Other observations

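Fatty acid elongases outside the members were below 1 FPKM, some of them only just. In mut/mut and wild-type cells Elovl2 was at 0.959 and 0.865 FPKM, Elovl4 at 0.963 and 0.795 FPKM, Elovl7 at 0.666 and 0.406 FPKM and Elovl3 at 0.0903 and 0.0579 FPKM. All 4 were higher in the mutant without a call. The desaturases Fads3 (0.0458 and 0.0959 FPKM in mut/mut and wild type) and Fads6 (0.331 and 0.448 FPKM) were likewise below 1 FPKM. These genes were chosen after their values were seen.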
